A study of Canis lupus familiaris with 12 samples.

Results

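BASP1, MARCKS and MARCKSL1 encode proteins that link the plasma membrane to actin, and their mRNA levels were described here in MDCKII cells lacking cingulin (CGN), paracingulin (CGNL1) or both. The 3 genes were chosen by name, and BASP1 was picked because it was high in the double-KO line. BASP1 and MARCKSL1 were found among the 13672 genes listed, and both were among the 12650 genes with more than 1 CPM (read counts scaled to a common library size) in at least 3 libraries, which were tested. MARCKS was not found under its symbol, an older symbol or its RefSeq locus name, so it was not analysed here.

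RNASeq was carried out on 12 libraries of MDCKII, a line of dog kidney epithelial cells. The genotypes were WT, CGN-KO, CGNL1-KO and a double-KO of CGN/CGNL1. Each had 3 libraries and no cells were treated. The KO cells were made with CRISPR/Cas9, and each KO genotype is 1 clone (1G8, 22 and 21D3, respectively), so a genotype and its clone cannot be told apart. The labels do not say that the libraries of a genotype came from separate cultures, so p-values measure only the spread between these libraries. The column of 1 double-KO library has no replicate number, and this library is called unnumbered.

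MARCKS and MARCKSL1 are homologs, and BASP1 is not related to them in sequence but resembles them in how it sits at the membrane. A fatty acid (myristate) on the N terminus and a stretch of basic residues hold these proteins on the inner face of the plasma membrane, where they bind the lipid PIP2 and influence the actin cortex. Protein kinase C phosphorylates the basic stretch and calmodulin binds it, and either event releases the protein from the membrane. MARCKS and MARCKSL1 are widely expressed, whereas BASP1 is best known from growing axons and also acts in the nucleus as a corepressor of WT1.

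Libraries held between 16837532 and 30086076 reads. The targeted genes went with the labels: CGN was at 199 to 233 CPM in WT and 198 to 213 CPM in CGNL1-KO libraries, against 47.0 to 56.5 CPM in CGN-KO and 39.7 to 45.3 CPM in double-KO libraries. CGNL1 was at 7.74 to 12.3 CPM in WT, 5.04 to 6.92 CPM in CGN-KO, 1.76 to 3.02 CPM in CGNL1-KO and 1.11 to 1.76 CPM in double-KO libraries. All 9 epithelial markers were found, with a summed level of 7320 to 8095 CPM over the 12 libraries. Of the markers of other cells, 1 of 7 for fibroblasts, 1 of 9 for neurons and 2 of 5 for leukocytes were found. The fibroblast marker found, PDGFRA, was at 2.705 to 5.48 CPM in WT, 5.88 to 11.1 CPM in CGN-KO, 3.75 to 9.81 CPM in CGNL1-KO and 4.94 to 7.00 CPM in double-KO libraries, and its part in the results was not tested. The neuronal marker found, MAP2, was at 26.6 to 35.2 CPM over all libraries.

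BASP1 had few reads in WT cells. It was at 1.47 CPM (25 reads), 0.828 CPM (15 reads) and 1.05 CPM (22 reads) in WT replicates 1, 2 and 3, a mean of 1.12 ± 0.328 CPM (SD, n = 3). In CGNL1-KO cells it was at 1.10, 2.12 and 1.71 CPM, a mean of 1.65 ± 0.512 CPM (SD, n = 3), and these libraries overlapped those of WT cells. In CGN-KO cells it was at 5.57, 7.75 and 6.61 CPM, a mean of 6.65 ± 1.09 CPM (SD, n = 3).

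The 3 CGN-KO libraries were thus all above every WT and CGNL1-KO library, as was the case for 18.4% and 10.2% of the genes tested. In double-KO cells BASP1 was at 14.5 CPM in replicates 2 and 3 and at 13.1 CPM in the unnumbered library, a mean of 14.0 ± 0.808 CPM (SD, n = 3). Every double-KO library was above every library of the other genotypes. Among all genes tested, 23.2% lay higher without overlap against WT, 16.6% against CGNL1-KO and 15.5% against CGN-KO cells. The order of the means was WT, CGNL1-KO, CGN-KO and double-KO, and only WT and CGNL1-KO overlapped.

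Counting error alone was wide at the low end. The 15 reads of WT replicate 2 gave a 95% Poisson interval of 0.463 to 1.37 CPM, and the 356 reads of double-KO replicate 3 one of 13.0 to 16.0 CPM. These intervals cover counting error only.

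**Figure D1:**
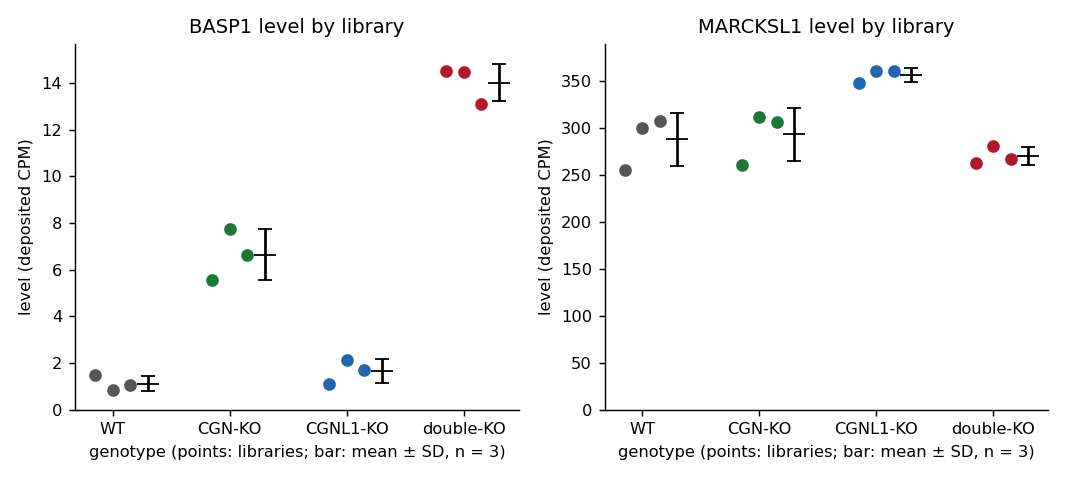
Level in deposited CPM (vertical axes, linear and starting at 0) of BASP1 and MARCKSL1 in each library by genotype; points are libraries and bars are the mean ± SD (n = 3). BASP1 sits near 1 to 2 CPM in WT and CGNL1-KO libraries, at 5.57 to 7.75 CPM in CGN-KO and at 13.1 to 14.5 CPM in double-KO libraries, whereas MARCKSL1 is highest in the CGNL1-KO libraries.

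The CGN-KO line had more BASP1 mRNA than WT cells. The mean in CGN-KO cells was 5.95 times that in WT cells, with ratios of single libraries between 3.78 and 9.36. In log2(CPM + 1), a scale on which changes of so low a gene look smaller, the difference was 1.85 (SE 0.154, 95% interval 1.53 to 2.18, limma adjusted p = 4.15e-07). This was the 15th highest difference of the 12650 genes tested, and 0.98% of them rose past the test with a fold of at least 2. A test on the reads themselves with edgeR gave a log2 fold change of 2.57 (adjusted p = 6.99e-07). The WT libraries are the ones against which BASP1 stood out in the double-KO line. The BASP1 difference between CGN-KO and WT cells, its rank and its p-values are therefore not independent of the choice of the gene. They are a description only. CGNL1 mRNA was also lower in CGN-KO than in WT cells (log2(CPM + 1) difference -0.61, limma adjusted p = 0.0201), as were 7.87% of genes at this test. The CGN-KO line thus did not differ from WT in CGN mRNA alone.

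CGN-KO and CGNL1-KO cells were compared with each other, without WT or double-KO libraries in the contrast, although BASP1 was picked for a high level in the double-KO line, which these lines were set against too. The mean in CGN-KO cells was 4.04 times that in CGNL1-KO cells, with ratios of single libraries between 2.63 and 7.03. The log2(CPM + 1) difference was 1.54 (95% interval 1.21 to 1.87, limma adjusted p = 1.41e-05), the 13th highest of the genes tested, of which 0.427% rose past the test with a fold of at least 2. It was 1.64, 1.49 and 1.49 between libraries numbered 1, 2 and 3.

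CGNL1-KO cells were not shown to differ from WT cells in BASP1. The ratio of the means was 1.47, the log2(CPM + 1) difference was 0.31 (95% interval -0.01 to 0.64, limma adjusted p = 0.245), and between same-numbered libraries it was -0.23, 0.77 and 0.40. In this comparison 0.379% of the genes tested rose past the test with a fold of at least 2.

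The comparisons of BASP1 with the double-KO line chose the gene and are given without a test. The mean in double-KO cells was 12.5 times that in WT cells, 8.52 times that in CGNL1-KO cells and 2.11 times that in CGN-KO cells. The libraries closest to each other, double-KO against CGN-KO, still differed 1.69 times. The background share of genes called higher was 0.767% against WT, 0.213% against CGNL1-KO and 0.0474% against CGN-KO cells.

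The excess of BASP1 over WT in double-KO cells was 12.9 CPM, and the excesses of the single-KO lines added up to 6.06 CPM. As log2 ratios of the means, the double-KO line was at 3.65 and the single-KO lines added up to 3.13. The interaction is the difference between double-KO and CGN-KO cells minus that between CGNL1-KO and WT cells. For BASP1 it was 0.67 on the log2(CPM + 1) scale, 0.57 with a pseudocount of 0.1 and 0.49 with edgeR. Its size thus depended on the scale, and it was not tested.

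**Figure D2:**
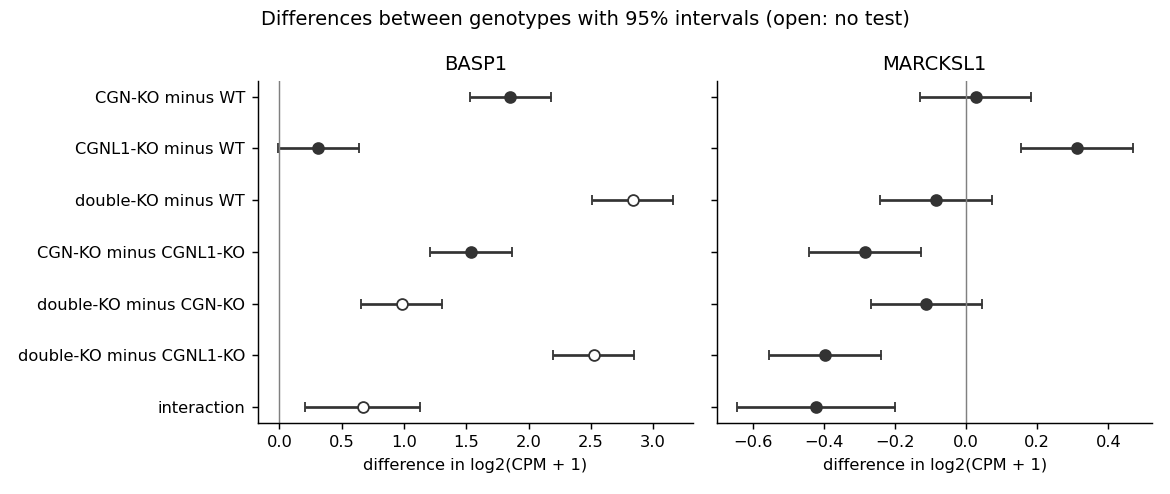
Difference between genotypes in log2(CPM + 1) (horizontal axes) of BASP1 and MARCKSL1 for the 6 pairs of genotypes and the interaction, with 95% intervals from limma; open points are BASP1 comparisons that chose the gene and have no test. BASP1 differences with CGN-KO lie far from 0, and the MARCKSL1 differences lie between -0.42 and 0.31.

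Another locus shares the genomic span of BASP1 in the RefSeq gene table. LOC106558747, a long noncoding RNA gene named here after its values were seen, was listed but was under the level needed for a test. It had 3, 2 and 3 reads in WT libraries and 1, 3 and 1 in CGNL1-KO libraries. It had 15, 7 and 1 reads in CGN-KO libraries and 12, 15 and 16 in double-KO libraries. Per library size, the double-KO libraries (0.609 to 0.775 CPM) were above those of every other genotype. Of the genes tested, 23.2% lay higher without overlap against WT, 16.6% against CGNL1-KO and 15.5% against CGN-KO cells. The CGN-KO libraries (0.059 to 0.495 CPM) overlapped those of WT and CGNL1-KO cells. The libraries came from a stranded kit, but the strand setting of the read counting is not given in the sources used here, so reads of the overlapping genes might not have been told apart.

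MARCKSL1, also called MARCKS-like protein 1, differed from BASP1 in the line with the highest level, which was CGNL1-KO. It was at 256, 301 and 308 CPM in WT replicates 1, 2 and 3, a mean of 288 ± 28.0 CPM (SD, n = 3). In CGNL1-KO cells it was at 348, 361 and 361 CPM, a mean of 357 ± 7.14 CPM (SD, n = 3). All 3 CGNL1-KO libraries were above every library of the other genotypes.

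In CGN-KO cells MARCKSL1 was at 261, 312 and 307 CPM, a mean of 293 ± 28.1 CPM (SD, n = 3). In double-KO cells it was at 263 and 281 CPM in replicates 2 and 3 and at 267 CPM in the unnumbered library, a mean of 271 ± 9.49 CPM (SD, n = 3). WT, CGN-KO and double-KO libraries overlapped. Libraries numbered 1 were the lowest of their genotype in WT, CGN-KO and CGNL1-KO cells.

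MARCKSL1 rose in CGNL1-KO cells, by less than 2-fold. The mean was 1.24 times that in WT cells and the log2(CPM + 1) difference was 0.31 (SE 0.074, 95% interval 0.15 to 0.47, limma adjusted p = 0.0120). In this comparison 6.81% of the genes tested rose at any fold, and 13.3% were higher without overlap. The difference was 0.44, 0.26 and 0.23 between same-numbered libraries, and without WT replicate 1 it was 0.23 with a limma adjusted p of 0.0584.

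MARCKSL1 was not shown to differ from WT cells with loss of CGN (log2 difference 0.03, 95% interval -0.13 to 0.18, limma adjusted p = 0.845) or of both genes (-0.09, 95% interval -0.24 to 0.07, limma adjusted p = 0.428). Its 4 genotypes differed in an F test (limma F = 10.8, adjusted p = 0.00325), as did 29.9% of the genes tested. These comparisons share the WT libraries.

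The gain of MARCKSL1 in CGNL1-KO cells was not seen where CGN was missing too. MARCKSL1 was lower in double-KO than in CGNL1-KO cells by a log2 difference of -0.40 (limma adjusted p = 0.00193). In this comparison 6.29% of genes fell and 15.1% were lower without overlap. The interaction was -0.42 (SE 0.105, limma adjusted p = 0.0166), and 6.45% of genes had a negative interaction that passed. Double-KO and CGN-KO cells were not shown to differ (-0.11, limma adjusted p = 0.411).

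MARCKSL1 was also lower in CGN-KO than in CGNL1-KO cells (log2 difference -0.29, limma adjusted p = 0.0337), as were 2.09% of genes at this test and 9.21% by libraries that did not overlap. This call was lost in 6 of 12 fits that left out 1 library. These were the fits without CGN-KO replicates 1 and 3, CGNL1-KO replicates 2 and 3, double-KO replicate 2 and the unnumbered library. Over all 12 fits the difference ran from -0.33 to -0.20, with a limma adjusted p of 0.0141 to 0.132. Across the 12 libraries the log2(CPM + 1) values of BASP1 and MARCKSL1 had a Pearson r of -0.51, which is a description of libraries of only 4 genotypes. In bulk RNA, fewer cells of a type and less RNA per cell cannot be told apart.

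Genes that act with these proteins were grouped into 7 lists, of which 75 genes were tested. Against WT, 8 rose and 6 fell in CGN-KO cells (10.7% and 8.0% of the list genes, against 11.2% and 7.87% of all genes tested). In CGNL1-KO cells 5 rose and 6 fell (6.67% and 8.0%, against 6.81% and 3.49%). In double-KO cells 15 rose and 16 fell (20.0% and 21.3%, against 14.8% and 11.5%). The same shares of all genes are the background for the counts of each list below. With the 2-fold threshold no list gene was called in either single-KO line (1 in each with edgeR), where 1.31% and 0.617% of all genes were, and 1 was called in double-KO cells, where 1.41% of all genes were.

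**Figure D3:**
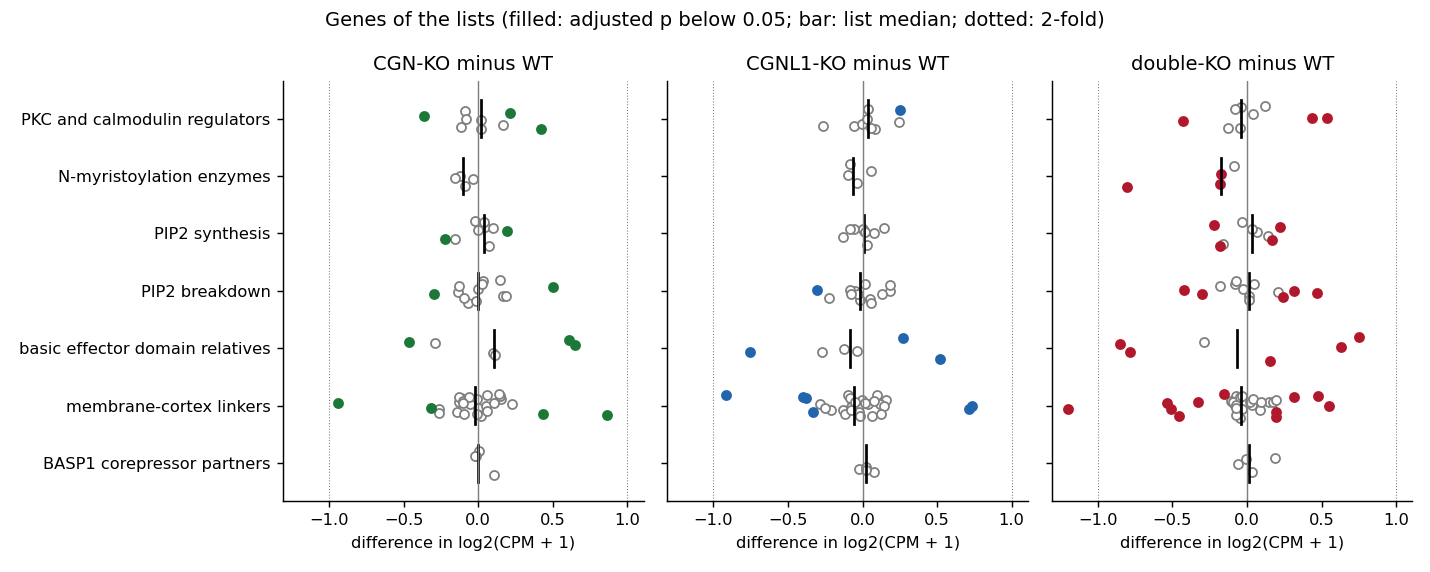
Difference of each KO genotype from WT in log2(CPM + 1) (horizontal axes) for the tested genes of the 7 lists; filled points passed limma at an adjusted p below 0.05, bars are list medians and dotted lines mark 2-fold. List medians lie near 0, and TLN2 in double-KO cells is the 1 gene past the 2-fold line that also passed the test.

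Protein kinase C and calmodulin, which release the proteins from the membrane, were measured by 9 of 12 genes, and 2 rose and 1 fell in CGN-KO cells. In CGNL1-KO cells 1 rose and 0 fell, and in double-KO cells 2 rose and 1 fell. The list medians were 0.02, 0.04 and -0.04. CALM2, a calmodulin gene, was at 299 CPM in WT and 290 CPM in double-KO cells and did not pass. CALM3, which encodes the same protein and is named after its values were seen, rose in each KO line, from 126 to 131 CPM in WT to 179 to 190 CPM in double-KO libraries (log2 difference 0.54, limma adjusted p = 3.20e-06).

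Among the 4 N-myristoylation enzymes, none passed in either single-KO line and 3 fell in double-KO cells, where 11.5% of all genes tested fell. NMT1, the main N-myristoyltransferase, was at 152 CPM in WT and 144 CPM in double-KO cells and did not pass. METAP2, which removes the leading methionine before the fatty acid is added, fell from 266 to 235 CPM (log2 difference -0.18, limma adjusted p = 0.0314). NMT2, the other N-myristoyltransferase, named after its values were seen, was at 5.83, 6.40 and 6.21 CPM in WT libraries and at 3.19, 2.56 and 3.58 CPM in double-KO libraries. NMT2 fell by 0.81 on the log2(CPM + 1) scale (limma adjusted p = 5.80e-05), with differences in the single-KO lines (-0.03 for CGN-KO, 0.06 for CGNL1-KO) that did not pass. Its interaction was -0.83 (limma adjusted p = 0.00253), and 6.45% of genes had a negative interaction that passed.

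Enzymes that make PIP2 were measured by 9 of 10 genes, and 1 rose and 1 fell in CGN-KO, none passed in CGNL1-KO and 2 rose and 2 fell in double-KO cells. PIP5K1A, a PIP2-forming kinase, was at 260 CPM in WT and 233 CPM in double-KO cells and did not pass. PI4K2B, which makes the precursor lipid, fell by 0.18 in double-KO cells (limma adjusted p = 0.0483). Enzymes that break PIP2 down were measured by 13 of 20 genes, of which 1 rose and 1 fell, 0 rose and 1 fell, and 3 rose and 2 fell in CGN-KO, CGNL1-KO and double-KO cells. PLCB3, a phospholipase C, rose from 132 CPM in WT to 183 CPM in double-KO cells (log2 difference 0.47, limma adjusted p = 5.26e-05), and PLCD1 was at 97.2 and 85.5 CPM and did not pass.

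The list of proteins with a comparable basic domain, which also holds the paralemmins, was measured by 6 of 11 genes. In each single-KO line 2 rose and 1 fell, and in the double-KO line 3 rose and 2 fell. AKAP12, a myristoylated scaffold of protein kinases A and C, was at 273, 267 and 265 CPM in WT, 382, 435 and 451 CPM in CGN-KO, 305, 337 and 329 CPM in CGNL1-KO and 456, 471 and 429 CPM in double-KO libraries. Every KO library was above every WT library, as for 18.4%, 13.3% and 23.2% of genes in CGN-KO, CGNL1-KO and double-KO cells, and the CGN-KO and double-KO libraries overlapped.

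AKAP12 rose by a log2 difference of 0.65 in CGN-KO cells (limma adjusted p = 2.00e-06), 0.27 in CGNL1-KO cells (adjusted p = 0.0111) and 0.75 in double-KO cells (adjusted p = 3.80e-07). It was also higher in the first of these lines than in the second by 0.38 (limma adjusted p = 0.00143), as were 3.09% of genes. ADD1, an adducin that caps actin at the membrane skeleton, was at 151 CPM in WT and 168 CPM in double-KO cells (0.15, limma adjusted p = 0.0307). PALM3 and PALM, paralemmins attached to the membrane by lipid, are named after their values were seen. PALM3 rose by 0.61, 0.52 and 0.63 in CGN-KO, CGNL1-KO and double-KO cells, and PALM fell by 0.85 in double-KO cells.

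The other membrane-cortex linkers were measured by 30 of 34 genes, of which 2 rose and 2 fell in CGN-KO cells. In CGNL1-KO cells 2 rose and 4 fell, and in double-KO cells 5 rose and 6 fell. TLN2, talin-2, which joins integrins to actin, was at 40.4, 35.1 and 36.6 CPM in WT and at 14.7, 16.2 and 16.2 CPM in double-KO libraries. It was at 19.7, 18.4 and 18.8 CPM in CGN-KO and at 20.2, 18.4 and 19.3 CPM in CGNL1-KO libraries. All KO libraries were below all WT libraries, as for 17.5%, 11.1% and 21.8% of genes in CGN-KO, CGNL1-KO and double-KO cells, and the 2 single-KO lines overlapped.

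TLN2 fell by 0.94 in CGN-KO cells (limma adjusted p = 2.60e-07), 0.92 in CGNL1-KO cells (adjusted p = 6.25e-07) and 1.20 in double-KO cells (adjusted p = 1.34e-08) on the log2(CPM + 1) scale, and its interaction was 0.66 (limma adjusted p = 0.000828), and 3.87% of genes had a positive interaction that passed. PHB2 and PHB, prohibitins that BASP1 binds in the nucleus, were at 415 and 301 CPM in WT and at 398 and 307 CPM in double-KO cells, and none of the 4 tested corepressor partners passed in any KO line. WT1 was not found under its symbol.

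The genes next to BASP1 had small differences from WT. Gene order was taken from RefSeq, to which 11748 of the genes tested were matched by symbol (92.9%), and BASP1 lies near one end of the order on its chromosome, with 14 tested genes within 10 places on either side. Their median log2 difference from WT was -0.07 in each KO line, and 1 rose and 0 fell in CGN-KO, 0 rose and 1 fell in CGNL1-KO and 1 rose and 4 fell in double-KO cells. Of all genes tested, 11.2% rose and 7.87% fell in CGN-KO cells. In CGNL1-KO cells 6.81% rose and 3.49% fell, and in double-KO cells 14.8% rose and 11.5% fell. Their values in double-KO cells ran from -0.56 to 0.30. The neighbour that rose was RETREG1, an endoplasmic reticulum protein named after its values were seen, by 0.26 in CGN-KO (limma adjusted p = 0.0196) and 0.30 in double-KO cells (limma adjusted p = 0.00529), with a difference of 0.07 in CGNL1-KO cells that did not pass. The nearest, CDH18, a cadherin, and MYO10, an unconventional myosin of filopodia, differed by -0.08 and 0.00018 in double-KO cells and did not pass.

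The 20 neighbours of MARCKSL1 had medians of 0.0053, 0.039 and -0.013, and 1 rose in each single-KO line and 2 rose and 1 fell in double-KO cells, against the shares of all genes given for the neighbours of BASP1. The nearest were BSDC1 and HDAC1, a histone deacetylase, at -0.0089 and 0.025 in CGNL1-KO cells, neither passing.

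**Figure D4:**
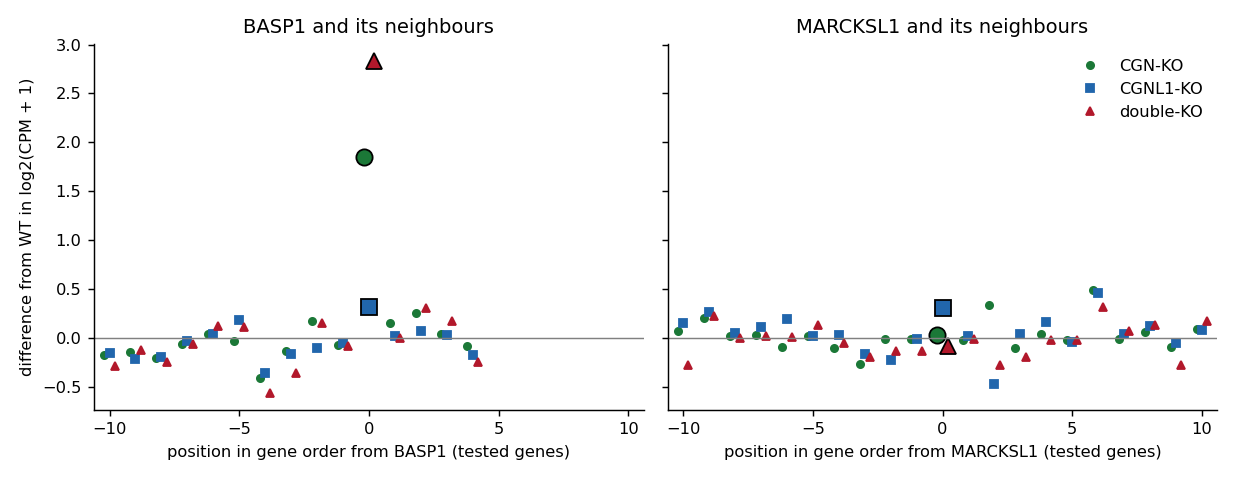
Difference of each KO genotype from WT in log2(CPM + 1) (vertical axis) against the position of each tested gene in RefSeq gene order from BASP1 or MARCKSL1 at 0; points are genes, coloured by genotype. BASP1 stands above its 14 neighbours in CGN-KO and double-KO cells, whose values run from -0.56 to 0.30 in double-KO cells.

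The genes with patterns most like each member over the 12 libraries were sought by Pearson r of log2(CPM + 1) among 9354 genes with a mean of at least 10 CPM. For BASP1 they were VCAN (r = 0.99), a matrix proteoglycan, POGLUT1 (0.99), which adds glucose to Notch, and B4GALT4 (0.98), a galactosyltransferase. VCAN was at means of 90.2 CPM in WT, 163 CPM in CGN-KO, 109 CPM in CGNL1-KO and 234 CPM in double-KO cells. This is the same order of genotypes as for BASP1, on smaller folds, and VCAN was chosen for this likeness. For MARCKSL1 they were ICAM1 (0.94), a cell adhesion receptor, PHLDA1 (0.92) and the cytokine LIF (0.91). ICAM1 was at means of 139, 152, 182 and 139 CPM in WT, CGN-KO, CGNL1-KO and double-KO cells. The libraries of a genotype share a clone, so the 12 points are not independent.

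**Figure D5:**
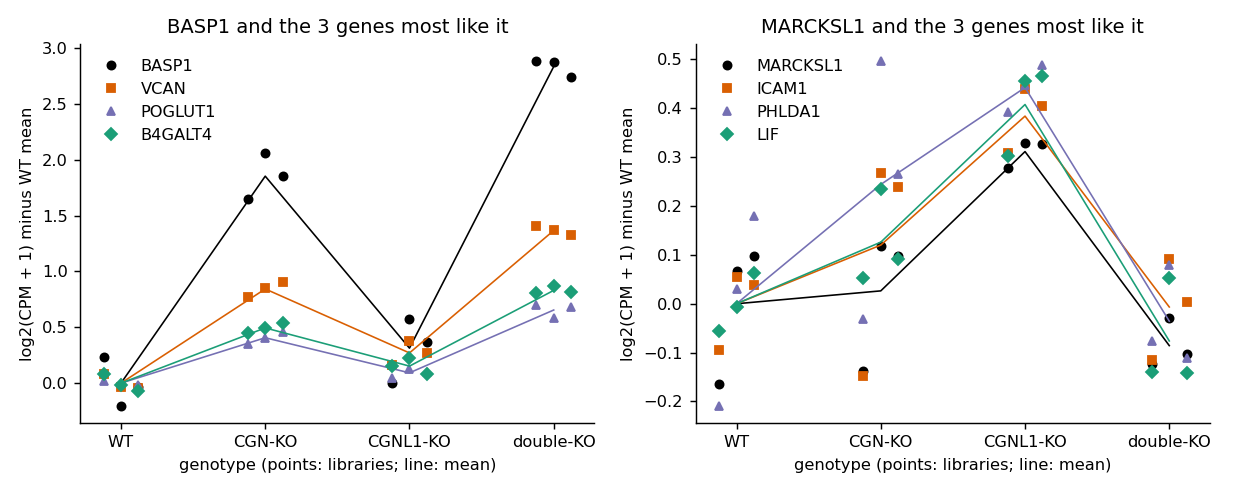
Values of log2(CPM + 1) minus the WT mean (vertical axes) of BASP1, MARCKSL1 and the 3 genes most like each, by genotype; points are libraries and lines join the means. VCAN, POGLUT1 and B4GALT4 follow the order of BASP1 with smaller differences. ICAM1, PHLDA1 and LIF have their highest mean in CGNL1-KO cells, as MARCKSL1 does. All 6 genes were chosen for this likeness.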

How the data were processed

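RNASeq was measured in 12 libraries, grouped by the genotype in the sample labels. Per the submitters' processing notes, reads were aligned with STAR 2.7.0f to CanFam3.1 and counted with HTSeq 0.9.1, and the authors normalized and filtered the counts with edgeR. The deposited values are a signal in CPM per gene and library. In every library all values (100%) were whole multiples of what 1 read is worth (within 0.01 read), which gave the recovered reads and totals of 16837532 to 30086076. No transcript length was at hand, so levels are not compared between genes, and the list genes with the highest level are those with the highest mean CPM, not per length.

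Values were tested as log2(CPM + 1) with limma 3.58.1 in R 4.3.3 (lmFit and eBayes with a trend, Benjamini-Hochberg over the 12650 genes tested), fitted to all 4 genotypes at once with no block for replicates. A gene passed at an adjusted p below 0.05 and was called at a fold of at least 2 as well. Alternatives were pseudocounts of 0.5 and 0.1, no filter on low values, scaling to library totals, edgeR 4.0.16 and DESeq2 1.42.0 on recovered reads, leaving out each library, and a replicate block. Fits were tested on simulated data.

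Members and gene lists were chosen with earlier results of these data known. Genes named are the members, CGN and CGNL1, the list genes called (up to 4 per list, or the 2 with the highest level where none was called), the 3 genes most like each member and the nearest neighbours. Others are said to be chosen after their values were seen. Some genes that this rule names are not reported here. The numbers of the CGN-KO and CGNL1-KO libraries pair them, by the correlation of their deviations from the genotype means (0.632, 0.475 and 0.179 for numbers 1, 2 and 3), which comes from the data and not from the labels. With WT (-0.0822 to 0.373) and double-KO libraries (-0.235 to 0.0859) not every correlation was over 0.1.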

Additional observations from a re-analysis of the deposited data

Results flagged for a closer look

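BASP1 and MARCKSL1 were marked because their levels differed between CGN-KO and CGNL1-KO cells, with log2(CPM + 1) differences of 1.54 and -0.29, so that the line with the higher level was CGN-KO for BASP1 and CGNL1-KO for MARCKSL1 (limma adjusted p = 1.41e-05 and 0.0337). The MARCKSL1 call was lost with scaling to library totals (limma adjusted p = 0.0772) and in 6 of 12 leave-one-out fits. MARCKSL1 was marked again because its change on losing CGNL1 differed with and without CGN, with an interaction of -0.42 (limma adjusted p = 0.0166). TLN2 was marked for its interaction of 0.66 (limma adjusted p = 0.000828): it was lower by 0.94 and 0.92 in the single-KO lines and by 1.20 in double-KO cells. Groups of 3 libraries were not tested for single outlying libraries.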

How the results depend on the processing

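Of 266 recomputed differences of the members, 247 kept their direction, their side of the threshold and, where untested, their size within 1 SD. MARCKSL1 in CGN-KO against WT cells, 0.03 and not passing, turned negative without CGN-KO replicate 2 (-0.02), CGN-KO replicate 3 (-0.0091) or WT replicate 1 (-0.056), within a leave-one-out range of -0.056 to 0.11. In CGNL1-KO against WT cells it no longer passed without WT replicate 1 (range 0.23 to 0.36). In CGN-KO against CGNL1-KO cells it no longer passed with scaling to library totals (-0.24, limma adjusted p = 0.0772). It was also lost there in 6 of 12 leave-one-out fits (range over all 12 fits -0.33 to -0.20). The cause was not tested.

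BASP1 in double-KO against WT cells, 2.84, was 3.18 and 3.57 with pseudocounts of 0.5 and 0.1, 3.65 with edgeR and 3.66 with DESeq2. Against CGNL1-KO cells, 2.52, it was 2.79, 3.06, 3.06 and 3.06. A smaller pseudocount shrinks low values less.

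Linker genes called were 0 in CGN-KO cells but 1 with pseudocounts of 0.5 and 0.1, edgeR and DESeq2, 0 in CGNL1-KO cells but 1 with a pseudocount of 0.1, edgeR and DESeq2, and 1 in double-KO cells but 2 with those 3. Over all genes, the 166, 78 and 178 called in CGN-KO, CGNL1-KO and double-KO cells became 309, 157 and 328 with edgeR, 305, 157 and 326 with DESeq2 and 292, 149 and 315 with a pseudocount of 0.1. The 82, 45 and 88 called for CGN-KO against CGNL1-KO, double-KO against CGN-KO and double-KO against CGNL1-KO became 146, 118 and 194 with edgeR, 144, 117 and 199 with DESeq2 and 134, 103 and 179 with a pseudocount of 0.1. For double-KO against CGN-KO cells a pseudocount of 0.5 gave 71, and the 206 called for the interaction became 310 with DESeq2.

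The replicate block used the 11 numbered libraries. With the block, BASP1 differed by 1.54 between CGN-KO and CGNL1-KO cells (limma adjusted p = 4.26e-07), MARCKSL1 passed there with an adjusted p of 0.00099 and in CGNL1-KO against WT cells with 0.000234, and the block changed no call of a member. Linker genes passing at any fold in CGN-KO cells went from 4 to 8. The number of all genes passing with the block is not given here, so this rise cannot be set against a background. The 15 to 25 reads of BASP1 in WT libraries limit the precision of every fold against WT.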

Other observations

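POGLUT1 and B4GALT4, both among the 3 genes most like BASP1, lie on 1 chromosome with 2 tested genes between them in RefSeq order, and BASP1 and VCAN lie on other chromosomes. The genes around them were looked at after this was seen. From IGSF11 to NDUFB4, a run of 13 tested genes bounded after the values were seen, 12 passed higher than WT in CGN-KO and 13 in double-KO cells, against 1 in CGNL1-KO cells. Of all genes tested, 11.2%, 14.8% and 6.81% rose in these lines. Their log2(CPM + 1) differences ran from 0.16 to 1.09 in CGN-KO (median 0.49), from 0.35 to 1.28 in double-KO (median 0.55) and from -0.32 to 0.34 in CGNL1-KO cells (median 0.04).

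FSTL1, a secreted glycoprotein, had the highest value of the run in both lines, 1.09 in CGN-KO and 1.28 in double-KO cells, and was at -0.05 in CGNL1-KO cells. The run also holds GSK3B, a kinase of the Wnt pathway (0.33, 0.04 and 0.42 in CGN-KO, CGNL1-KO and double-KO cells), and COX17, a copper chaperone of the respiratory chain (0.56, 0.16 and 0.73). The other 103 tested genes of this chromosome outside the 20 neighbours of POGLUT1 had medians of -0.03, -0.0059 and -0.02. IGSF11, UPK1B and ADPRH were higher in CGN-KO (0.51, 0.74 and 0.52) than in double-KO cells (0.37, 0.65 and 0.47), unlike BASP1 (1.85 and 2.84). The source of the pattern was not tested.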
